A study of Mus musculus with 9 samples.

Results

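The hedgehog co-receptors and signal transducers described here are 10 mouse genes: the ligand co-receptors Gas1, Boc and Cdon, the signal transducer Smo, the transcription factors Gli2 and Gli3, their regulators Sufu and Kif7, and Disp1 and Scube3, which act in ligand release. They were chosen by name, as every probe set to which the platform annotation gives 1 of these symbols and no other. That gave 23 of the 45101 probe sets of the array, and all 10 genes were among the 18193 genes measured. The levels are from 9 arrays of small intestinal mesenchyme, the connective tissue and muscle precursor layer of the gut wall, from C57Bl/6J mouse embryos at E18.5, shortly before birth. All 3 groups shared that strain and age, removal of the epithelium, and 48 h of culture on collagen in medium with serum. They differed in a 24 h treatment with Sonic hedgehog (Shh), with Indian hedgehog (Ihh) or with Vehicle, 3 arrays each. The labels give no ligand dose and do not say what the vehicle was. Each treatment had 6 wells, combined at random to make its 3 samples, so p-values measure the spread between pools of wells, which may be partly technical. The stated purpose of the series was to find genes that hedgehog signalling controls in this tissue.

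Hedgehog ligands are lipid-modified proteins that leave their source cells through the transporter-like membrane protein Disp1, helped by secreted Scube proteins. On receiving cells they bind the receptor Ptch1 together with a co-receptor, Gas1, Boc or Cdon, and Ptch1 then stops restraining the membrane protein Smo. Active Smo, in the primary cilium, frees the Gli transcription factors from Sufu and Kif7, so that Gli2 acts mainly as an activator while less Gli3 is cut into a repressor. In the gut the epithelium makes the ligands and the mesenchyme receives them, and Ptch1, Gli1 and Hhip are genes that the pathway switches on.

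The upstream sequences of Gas1 and Gli2 are shown because these genes had the lowest and the highest difference among the 10. Each is the 250 bases before the RefSeq start site in GRCm38.p6, written 5′ to 3′ on the strand of the gene, minus for both. They lie at chr13:60177536-60177785 for Gas1 and chr1:119053620-119053869 for Gli2. Capitals mark a GC box (GGGCGG or its reverse complement CCGCCC), a common promoter element.
Gas1: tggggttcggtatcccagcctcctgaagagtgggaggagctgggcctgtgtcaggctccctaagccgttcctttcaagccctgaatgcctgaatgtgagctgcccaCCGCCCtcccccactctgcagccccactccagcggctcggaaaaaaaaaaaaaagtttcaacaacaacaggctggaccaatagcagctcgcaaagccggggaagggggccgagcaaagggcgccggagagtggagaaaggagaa
Gli2: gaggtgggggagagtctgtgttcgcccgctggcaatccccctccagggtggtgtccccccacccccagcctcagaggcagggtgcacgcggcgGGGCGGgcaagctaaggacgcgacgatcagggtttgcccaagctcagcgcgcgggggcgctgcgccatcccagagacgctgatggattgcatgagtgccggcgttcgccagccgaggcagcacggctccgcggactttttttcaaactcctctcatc
RefSeq promoter windows, 250 bases before to 50 after a start, matched 9 of the 10 genes by symbol, with 10 windows in all. Of these, 0 held the motif of Gli proteins TGGGTGGTC and 0 its shorter core CCACCCA on either strand, with the core counted also where it lies within the longer motif. Of all 32851 windows of that table, 0.253% held the motif and 9.30% the core. A GC box lay in 5 of the 10 windows, those of Gas1, Gli2, Gli3, Sufu and Kif7, against 35.7% of all windows. These matches describe letters in short windows only.

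Values are log2 expression, so a difference of 1 is a factor of 2, and were already normalized between arrays. Where a gene had several probe sets, the one with the highest average level stands for it. Array medians lay between 5.87 and 5.92 log2 and served as a working mark of low levels, under which changes are compressed. Of the 23 probe sets, 14 lay above the median of every array, 8 lay below it on all 9 arrays and 1, a second probe set for Sufu, on 2 arrays. The probe sets that stand for the genes all lay above it but that of Scube3, which was below it on every array. The culture carried its labelled tissue: of 10 mesenchyme markers 0 lay below the medians on all arrays, with Col3a1, a collagen, at 13.14 to 13.43 and Pdgfra, a fibroblast receptor, at 11.73 to 12.06. Other cells were present too, such as macrophages, whose growth factor receptor Csf1r lay at 12.003 to 12.35, and endothelium, nerve and glia. Of 8 epithelium markers, 2 lay below the medians on all arrays, the factors Cdx1 and Cdx2. Another, Epcam, lay above the median of every array, at 7.72 to 7.98, so signal of epithelial genes remained. The epithelial keratin Krt8 varied from 7.54 to 10.62 between pools, and the marker Cdh1 from 4.71 to 8.37. The pools also differed in a marker of embryo sex: the X-inactivation transcript Xist lay at 6.34 to 6.48 on Vehicle 2, Vehicle 3 and Shh 3 and at 10.04 to 11.31 on the other 6 arrays. Those 6 were not alike in the Y-linked gene Eif2s3y. It lay at 3.24 on Shh 1, 3.17 on Shh 2, 6.24 on Vehicle 1 and 7.54 to 8.51 on the Ihh arrays. On Vehicle 2, Vehicle 3 and Shh 3 it lay at 8.44 to 8.98. Sex make-up thus differed between the groups, and the Xist level alone does not describe it. These are bulk samples, in which fewer cells of a type and less RNA per cell cannot be told apart.

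Of the 10 genes, 1 passed the test against Vehicle, and the others differed from Vehicle by at most 0.33 log2 with both ligands together. Gas1, a membrane-anchored co-receptor for hedgehog ligands, fell to 0.62 of its Vehicle level over both ligands together, while the receptor Ptch1 rose 2.78-fold on the same arrays. Gli2 lay 0.33 log2 above Vehicle on average and missed the threshold. Smo, Boc, Gli3 and Kif7 differed from Vehicle by at most 0.03 log2 in the probe sets that stand for them. Another probe set of Boc differed by -0.22 log2 and did not pass the test. In limma's fit to all 18193 genes, with p-values adjusted by Benjamini-Hochberg and a threshold of 0.05, 0 of the 10 genes rose and 1 fell with both ligands, beside 1.51% of all genes called in that comparison, 0.434% higher and 1.07% lower. The median difference of the 10 genes was -0.01 log2, against 0.00 for all genes, with 4 of 10 above 0. Their quartiles were wider, at -0.12 and 0.14, against -0.06 and 0.06 for all genes. Without adjustment, at p under 0.05, 2 genes were higher (Gli2 and Cdon) and 2 were lower (Gas1 and Disp1), beside 13.7% of all genes, 5.25% higher and 8.41% lower. Treated and Vehicle arrays did not overlap for 3 of the 10 (Gas1, Gli2 and Disp1), beside 6.47% of all genes.

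**Figure D1:**
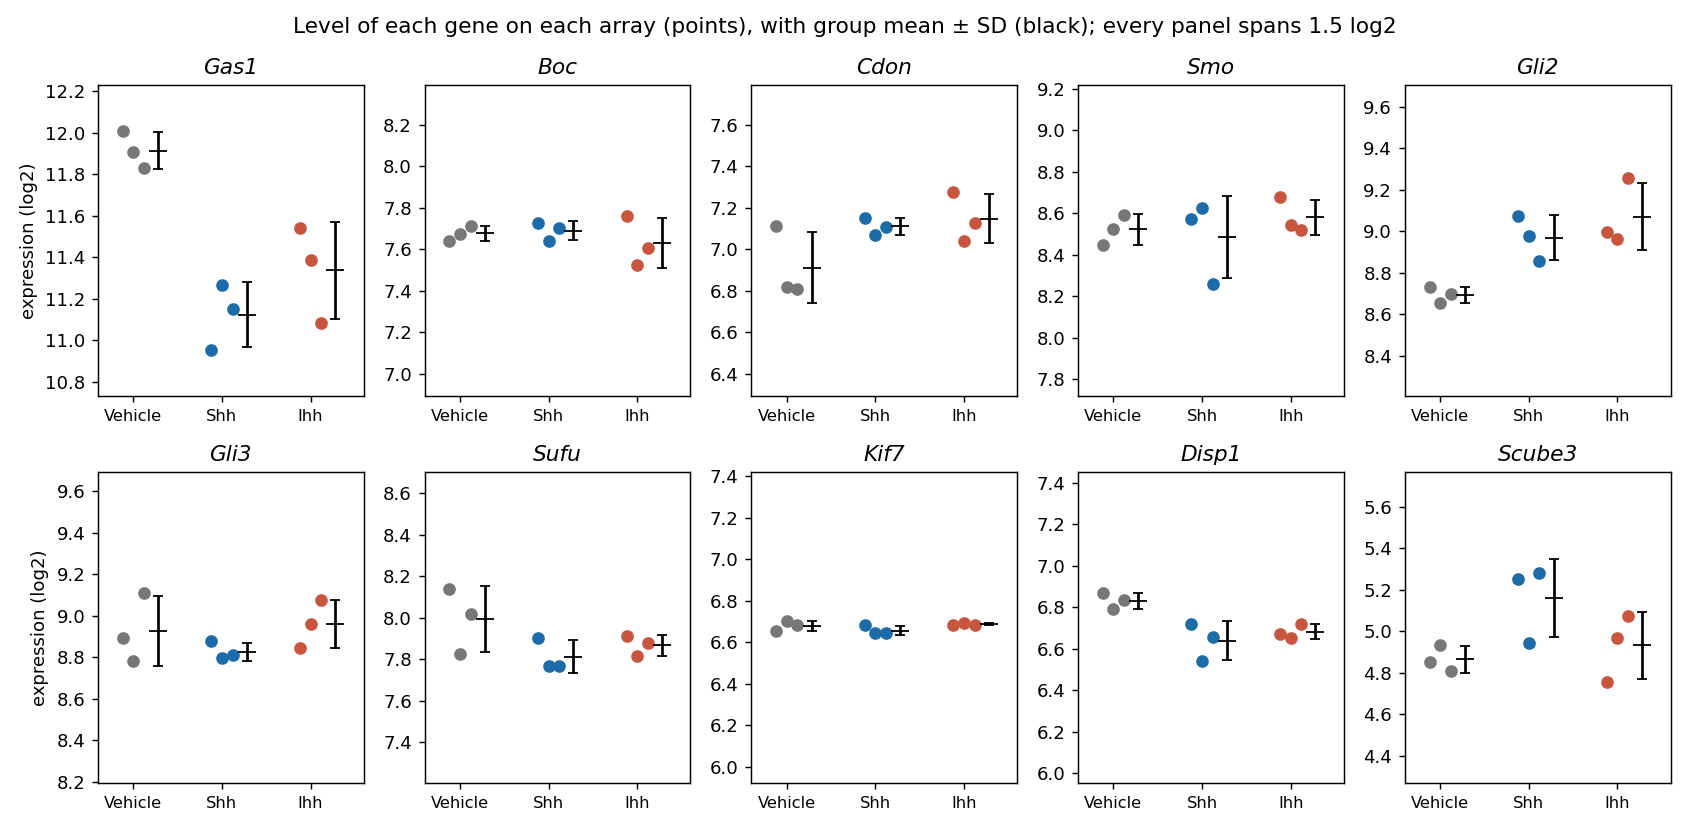
Expression (log2, vertical axis) of each of the 10 genes on each array by treatment (horizontal axis), with 3 points a group and the group mean ± SD in black. Every panel spans the same width in log2 but is centred on its own gene, so heights do not compare across panels. The treated points of Gas1, at 10.95 to 11.54, all lie below the Vehicle points at 11.83 to 12.01, and those of Gli2, at 8.86 to 9.25, all lie above the Vehicle points at 8.65 to 8.73.

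Among the co-receptors, Gas1 lay at 12.01, 11.91 and 11.83 log2 on the Vehicle arrays. With Shh it lay at 10.95, 11.27 and 11.15, and with Ihh at 11.54, 11.39 and 11.08. Every treated array was below every Vehicle array, the arrays of the ligands overlapped each other, and Ihh 1 was the treated array nearest to Vehicle. The Vehicle mean was 11.91 ± 0.09 (SD, n = 3), the Shh mean 11.12 ± 0.16 and the Ihh mean 11.34 ± 0.23. For both ligands together Gas1 fell by 0.68 ± 0.10 log2 (SE; limma adjusted p = 0.011, lower in 6 of 6 treated arrays). The 95% interval of its level relative to Vehicle was 0.53 to 0.73. Of the 10 genes, Gas1 also varied most between pools of a group, with a pooled SD of 0.17 log2. The call held in 7 of 9 limma fits that each left out 1 array. It ended without Vehicle 1 (adjusted p = 0.0661) and without Vehicle 2 (0.0633), with differences of -0.64 and -0.69. Leaving out 1 of 3 Vehicle arrays also lowers the precision.

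A second probe set of Gas1 measures the same gene on the same arrays. It lay at 10.85, 10.55 and 10.45 log2 with Vehicle, at 9.26, 9.48 and 9.53 with Shh, and at 10.10, 9.78 and 9.46 with Ihh. The groups were again apart, and Ihh 1 was again the highest treated array. In limma's fit to all 45037 probe sets that are no controls, it fell by 1.01 ± 0.13 log2 (SE, adjusted p = 0.00833), to 0.495 of Vehicle. The probe set that stands for Gas1 had an adjusted p of 0.0152 in that fit. They were the 2 of 23 probe sets called lower with both ligands, and 0 were called higher, beside 0.804% of all probe sets, 0.249% higher and 0.555% lower. Without Vehicle 1 neither was called (limma adjusted p = 0.0969 for the first and 0.0535 for the second), and without Vehicle 2 the first was not (0.0632). The third probe set of the gene was below the median of every array, at 5.20 to 5.40, and did not separate the groups. With the Xist level as a covariate, 1 of the 23 was called, the second of Gas1. Treated and Vehicle arrays did not overlap for 6 of the 23 probe sets, beside 5.32% of all probe sets.

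Several other values were set beside those of Gas1, and some of them overlapped between the groups. As a sign of RNA integrity, the Gapdh control probe set at the 3′ end minus that at the 5′ end gave -0.08 to 0.03 log2 on Vehicle arrays, -0.04 on Ihh 1 and -0.19 to -0.15 on the other 5 treated arrays. A higher value means relatively less signal at the 5′ end, and those 5 treated arrays all lay below the Vehicle range. Ihh 1 lay within it and was also the treated array nearest to Vehicle in Gas1. The same measure for actin did not separate the groups, at 0.15 to 0.28 on Vehicle arrays and 0.12 to 0.18 on treated arrays. Relative to the Vehicle mean, the mean of 6 of 6 measured endothelium markers was -0.15 to 0.09 on Vehicle arrays, -0.47 to -0.36 with Shh and -0.44 to 0.03 with Ihh. That of the 10 mesenchyme markers was -0.08 to 0.08 with Vehicle, -0.24 to -0.04 with Shh and -0.09 to 0.01 with Ihh, and limma called 0 of the 10 for both ligands (at an unadjusted p under 0.05, 1 was higher and 4 were lower). Of the endothelium markers it called 0 as well (at an unadjusted p under 0.05, 0 were higher and 3 lower), while 1 of the 6 was called lower with Shh alone, with a list median of -0.45. The mean of 5 measured enteric neuron and glia markers was -0.13 to 0.14 with Vehicle, -0.32 to -0.23 with Shh and -0.25 to 0.12 with Ihh. That of the 8 macrophage and leukocyte markers was -0.13 to 0.13 with Vehicle and -0.14 to 0.01 on treated arrays. Of these 8, 2 were called higher and 2 lower for both ligands, beside 1.51% of all genes. A list mean can hide such calls in opposite directions. The mean of the 6 smooth muscle markers was -0.16 to 0.12 with Vehicle and -0.28 to 0.39 on treated arrays. For the 8 epithelium markers it was -0.81 to 0.74 with Vehicle and -0.67 to 0.85 on treated arrays. Of the markers of endothelium, leukocytes, neurons and glia, 0 lay below the medians on all arrays. The part of RNA quality and cell make-up in the fall of Gas1 was not tested.

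Boc, an immunoglobulin-family co-receptor, lay at 7.64 to 7.71 log2 with Vehicle, 7.64 to 7.73 with Shh and 7.53 to 7.76 with Ihh. The ranges overlapped, and both ligands together differed from Vehicle by -0.02 ± 0.06 (limma adjusted p = 0.945). The 95% interval of 0.90-fold to 1.08-fold gives how large a change could have been missed by this probe set. Another probe set of Boc lay at 6.93, 6.68 and 6.82 with Vehicle, at 6.69, 6.34 and 6.69 with Shh and at 6.59, 6.50 and 6.78 with Ihh. It was lower on average, by -0.22 ± 0.10 (SE, adjusted p = 0.388 over all probe sets), with overlapping groups. Its 95% interval was 0.74-fold to 0.998-fold, and it stands for Boc when less specific probe sets are left out. The probe sets of Boc thus gave different sizes, and neither passed the test. The third was below the median of every array.

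Cdon, the co-receptor most closely related to Boc, went the other way from Gas1 on average. It lay at 7.11, 6.82 and 6.81 log2 with Vehicle, at 7.15, 7.07 and 7.11 with Shh and at 7.27, 7.04 and 7.13 with Ihh. Vehicle 1 lay within the treated range, while Vehicle 2 and Vehicle 3 lay below every treated array. The difference for both ligands was 0.22 ± 0.08 (SE, limma adjusted p = 0.241), a level of 1.03 to 1.31 times that of Vehicle by its 95% interval. Its other probe set, below the median of every array, differed by 0.13 (adjusted p = 0.407 over all probe sets).

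Smo, the membrane protein that carries the signal inward, had levels much alike in the 3 groups. It lay at 8.45 to 8.59 log2 with Vehicle, 8.26 to 8.62 with Shh and 8.52 to 8.68 with Ihh, and Shh 3 was the lowest array. Both ligands together differed from Vehicle by 0.01 ± 0.08 (SE, limma adjusted p = 0.977), and the 95% interval was 0.89-fold to 1.15-fold. A second probe set of similar level differed by 0.02 (adjusted p = 0.955 over all probe sets). The third lay below the median of every array, at 3.78 to 3.89 with Vehicle and 3.97 to 4.08 on treated arrays. Its groups did not overlap, and its difference of 0.16 did not pass the test (adjusted p = 0.199 over all probe sets).

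Gli2, the main activator among the Gli factors, lay at 8.73, 8.65 and 8.69 log2 on the Vehicle arrays. With Shh it lay at 9.07, 8.98 and 8.86, and with Ihh at 8.996, 8.96 and 9.25. All 6 treated arrays were above all 3 Vehicle arrays, with Ihh 3 the highest and Shh 3 the lowest of the treated. The difference of both ligands from Vehicle was 0.33 ± 0.07 (SE, limma adjusted p = 0.0677), with a 95% interval of 1.12-fold to 1.41-fold. Both probe sets of Gli2 are tied by the annotation to 1 and the same accession, and where it lies relative to the coding transcript of Gli2 was not checked here, so these values are those of the probe sets named Gli2. The other settings moved that adjusted p to either side of the threshold, between 0.0219 and 0.208. It passed with array weights (0.0219), with a trended and robust variance model (0.0449) and without dim genes (0.0499). Without any 1 array it was 0.0748 to 0.260. The second probe set of Gli2 lay at 7.44 to 7.53 with Vehicle and 7.38 to 7.70 on treated arrays. Those ranges overlapped, and its difference was 0.08 ± 0.08 (SE, adjusted p = 0.724 over all probe sets). The 2 probe sets of Gli2 therefore disagreed in size, and the higher level was seen in 1 of them.

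Gli3, which gives rise to the main repressor of the pathway, lay at 8.78 to 9.11 log2 with Vehicle, 8.80 to 8.88 with Shh and 8.84 to 9.08 with Ihh. The ranges overlapped, and both ligands together differed from Vehicle by -0.03 ± 0.08 (SE, limma adjusted p = 0.91), with a 95% interval of 0.87-fold to 1.10-fold. A second probe set lay at 7.86 to 7.99 on all 9 arrays and differed by -0.03 (adjusted p = 0.892 over all probe sets). The third lay below the median of every array, at 5.47 to 5.58 with Vehicle and 5.58 to 5.66 on treated arrays, groups that did not overlap and differed by 0.09 (adjusted p = 0.51 over all probe sets).

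Neither regulator of the Gli proteins passed the test. Sufu, which holds Gli proteins inactive in the cytoplasm, lay at 8.14, 7.82 and 8.02 log2 with Vehicle, at 7.90, 7.77 and 7.77 with Shh and at 7.91, 7.81 and 7.88 with Ihh. Vehicle 2 lay within the treated range, and the difference for both ligands was -0.15 ± 0.07 (SE, limma adjusted p = 0.381). Its 95% interval was 0.81-fold to 1.004-fold. The mean over the gene's 3 probe sets differed by -0.01. It includes 1 probe set below the median of every array, which differed by 0.14, and 1 near the medians, which differed by -0.02. Kif7, a kinesin of the cilium tip that organises Gli and Sufu there, had the smallest spread of the 10 genes, a pooled SD of 0.019 log2. It lay at 6.64 to 6.70 on all 9 arrays, and the difference for both ligands was -0.01 ± 0.04 (SE, adjusted p = 0.963), with a 95% interval of 0.93-fold to 1.06-fold. It has 1 probe set.

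Of the genes of ligand release, Disp1 lay at 6.87, 6.79 and 6.83 log2 with Vehicle, at 6.72, 6.54 and 6.66 with Shh and at 6.67, 6.65 and 6.72 with Ihh. Every treated array was below every Vehicle array, by little. The difference of -0.17 ± 0.05 (SE, limma adjusted p = 0.167) did not pass the test, and its 95% interval was 0.82 to 0.96 of Vehicle. The other probe set of Disp1, below the median of every array, differed by 0.07, so the direction was not shared. Scube3, a secreted protein of the Scube family, was low throughout, at 4.81 to 4.93 with Vehicle, at 5.25, 4.94 and 5.28 with Shh and at 4.76, 4.97 and 5.07 with Ihh. All Shh arrays lay above Vehicle, Shh 2 barely, and the Ihh arrays spanned the Vehicle range. For both ligands the difference was 0.18 ± 0.09 (SE, adjusted p = 0.425), on a compressed part of the scale.

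**Figure D2:**
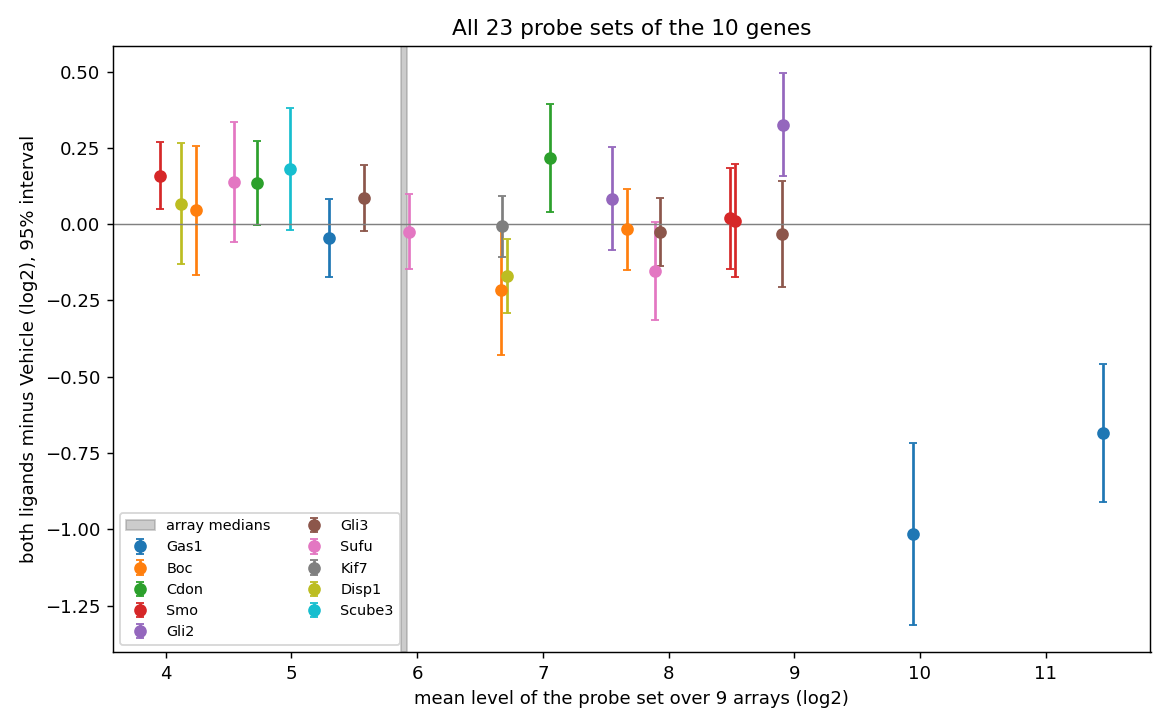
Difference of both ligands from Vehicle (log2, vertical axis, with its 95% interval) against mean level over the 9 arrays (log2, horizontal axis) for all 23 probe sets, coloured by gene; the grey band is the range of the array medians. The 2 brighter probe sets of Gas1 stand at -0.68 and -1.01, and the other 21 lie between -0.22 and 0.33.

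The ligands were also set against Vehicle one at a time, in comparisons that share the 3 Vehicle arrays. With Shh, 0 of the 10 genes rose and 1, Gas1, fell (-0.79 ± 0.12 log2, SE, limma adjusted p = 0.0132), beside 1.73% of all genes, 0.489% higher and 1.24% lower. With Ihh the limma calls were 0 higher and 0 lower, beside 0.649% of all genes, 0.192% higher and 0.456% lower. Without adjustment, at p under 0.05, 2 were higher with Ihh (Gli2 and Cdon) and 2 lower (Gas1 and Disp1), beside 9.19% of all genes, 3.56% higher and 5.63% lower. Gas1 differed from Vehicle by -0.58 ± 0.12 with Ihh (adjusted p = 0.0735), with 3 of 3 arrays below all Vehicle arrays, and was called with array weights at 0.0129. Its alternatives with Ihh gave an adjusted p between 0.0129 and 0.225. Gas1 with Shh lost its call without Vehicle 1 (0.0693) or Vehicle 2 (0.0566). For Gli2 the difference was 0.28 with Shh (adjusted p = 0.133) and 0.38 with Ihh (adjusted p = 0.114, and 0.0308 with array weights). Scube3 differed by 0.29 with Shh (adjusted p = 0.173) and by 0.07 with Ihh (adjusted p = 0.926). Arrays were apart from Vehicle for 4 of the 10 genes with Shh (Gas1, Disp1, Gli2 and Scube3), beside 20.9% of all genes, and for 3 with Ihh (Gas1, Disp1 and Gli2), beside 13.8%. Of the 23 probe sets, 2 were called with Shh, the brighter ones of Gas1, both lower, beside 0.946% of all probe sets and 0.686% lower. With Ihh it was 0 of 23, beside 0.284%. The brightest probe set of Gas1 lost its call with Shh without Vehicle 1, Vehicle 2, Shh 1 or Shh 3 (limma adjusted p up to 0.0898). The second probe set of Gas1 kept that call without any 1 array.

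Compared with each other, Shh and Ihh did not separate in any of the 10 genes: limma called 0 and the arrays of the ligands overlapped in all 10. At an unadjusted p under 0.05 there were also 0 of the 10, beside 13.1% of all genes, and each alternative called 0 as well. Of all genes, 0.0110% were called between the ligands and 17.3% had arrays that did not overlap. Of the 23 probe sets 0 were called between the ligands, beside 0.00444%, with 1 lower at an unadjusted p under 0.05, the second of Gas1 (-0.35, adjusted p = 0.359). Shh and Ihh arrays did not overlap for 3 of the 23, dimmer probe sets of Cdon, Smo and Sufu that were higher with Shh by 0.14, 0.06 and 0.12, beside 17.8% of all probe sets. Gas1 was 0.21 ± 0.12 log2 lower on average with Shh than with Ihh (SE, adjusted p = 0.452), with a 95% interval of the difference from -0.48 to 0.05. The test of the ligands against each other thus did not separate them for Gas1, which was called with Shh and not with Ihh. Scube3 had the widest positive difference, 0.23 (adjusted p = 0.386), with an interval from -0.0049 to 0.46. For Gli2 the difference was -0.10, with an interval from -0.29 to 0.09, and for Gli3 -0.13, from -0.33 to 0.07. The tightest interval was that of Kif7, from -0.14 to 0.08. Missing the threshold does not show that the ligands act alike on these genes.

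**Figure D3:**
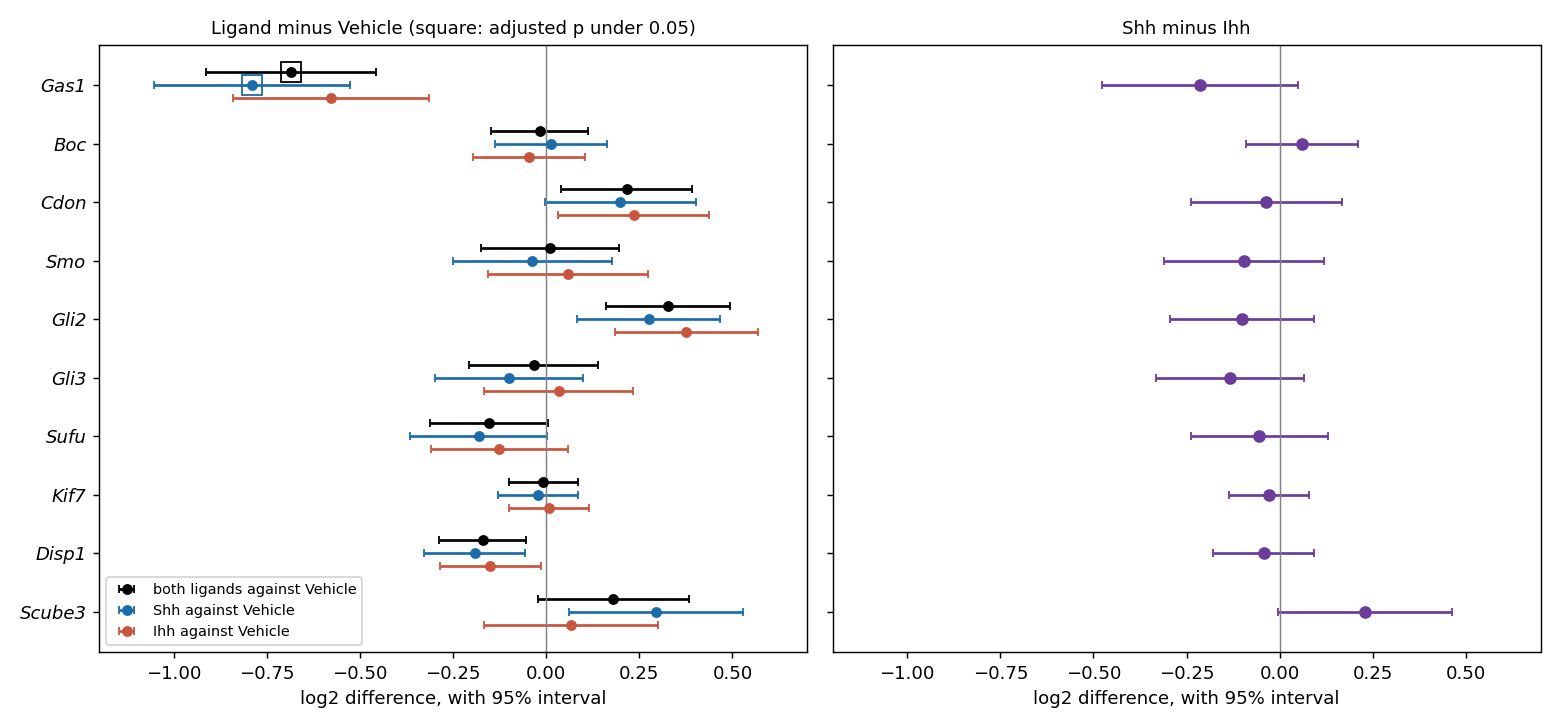
Differences (log2, horizontal axis) with 95% intervals for the 10 genes (vertical axis), left for each ligand and both together minus Vehicle and right for Shh minus Ihh; a square marks an adjusted p under 0.05. The squares are those of Gas1 with both ligands (-0.68) and with Shh (-0.79), and in the right panel the largest differences are those of Scube3 (0.23) and Gas1 (-0.21).

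The rest of the pathway was read from 4 lists that leave out the 10 genes. Of 8 measured genes for ligand binding at the surface, 3 rose and 0 fell with both ligands, with a list median of 0.16 log2 against 0.00 for all genes. They were Ptch1, the ligand receptor, at 1.48 ± 0.13 (SE, limma adjusted p = 0.000622), Hhip, which binds and restrains ligand, at 0.58 ± 0.10 (adjusted p = 0.0243), and Gpc3, a cell surface proteoglycan that binds hedgehog ligands, at 0.49 ± 0.09 (adjusted p = 0.0348). Gpc3 lay at 6.90, 7.03 and 6.99 log2 with Vehicle, at 7.69, 7.61 and 7.36 with Shh and at 7.26, 7.27 and 7.60 with Ihh, with all treated arrays above Vehicle. Its call held without Shh 3, Ihh 1 or Ihh 3 and was lost when any of the remaining 6 was left out, with p-values up to 0.155. That of Hhip, a gene below the medians, ended without Vehicle 1, Vehicle 2, Shh 2 or Shh 3, at up to 0.119.

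Of 23 Gli regulators, counting Gli1 with them, 1 rose and 0 fell, with a list median of -0.03 log2. It was Gli1, the Gli factor that the pathway induces, at 0.89 ± 0.18 (SE, limma adjusted p = 0.0443). It lay at 5.24, 5.44 and 5.01 with Vehicle, at 5.89, 6.56 and 5.63 with Shh and at 6.34, 6.03 and 6.27 with Ihh. All treated arrays lay above Vehicle, and the call ended without any array but Shh 2 or Shh 3, at up to 0.155. Dyrk2, a kinase that acts on Gli proteins, differed by -0.15 (adjusted p = 0.368) and Tulp3, which brings receptors into the cilium, by -0.17 (adjusted p = 0.395). Of 15 Smo regulators limma called 0 (at an unadjusted p under 0.05, 1 was higher and 3 were lower), and their median was 0.00. The arrestins Arrb2 and Arrb1, adaptors of activated membrane receptors, differed by -0.37 (adjusted p = 0.0914) and -0.25 (adjusted p = 0.281), with overlapping arrays. Efcab7, which anchors the Evc complex near the base of the cilium, differed by 0.16 (adjusted p = 0.231).

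Of the 9 ligands and genes of their release limma called 0 (at an unadjusted p under 0.05, 2 were higher and 3 lower), and their median was 0.04 log2. The transcripts of the ligands themselves were near or below the array medians, Shh at 5.69 to 6.17 and Ihh at 4.20 to 4.81. They differed by 0.24 (adjusted p = 0.127) and 0.31 (adjusted p = 0.112), and all treated arrays lay above Vehicle for both. Adam17, a membrane protease, differed by -0.22 (adjusted p = 0.12) with all treated arrays below Vehicle. Against Vehicle one ligand at a time, 3 genes of the 4 lists rose with Shh (Ptch1 at 1.41, Hhip at 0.58 and Gpc3 at 0.58) and 1 with Ihh (Ptch1 at 1.54), with limma adjusted p of 0.00298, 0.0402, 0.0325 and 0.00144. Ptch1 kept both calls without any 1 array. With Shh, Hhip lost its call without Vehicle 1, Vehicle 2, Ihh 2 or any Shh array (up to 0.147), and Gpc3 without Vehicle 1, Vehicle 2, Shh 1, Shh 2 or Ihh 2 (up to 0.127). Of the 4 lists 0 genes fell in these comparisons. Between Shh and Ihh limma called 0 genes of the 4 lists, beside 0.0110% of all genes. Without adjustment, at p under 0.05, 3 genes of the lists were higher with Shh and 3 lower, beside 13.1% of all genes.

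**Figure D4:**
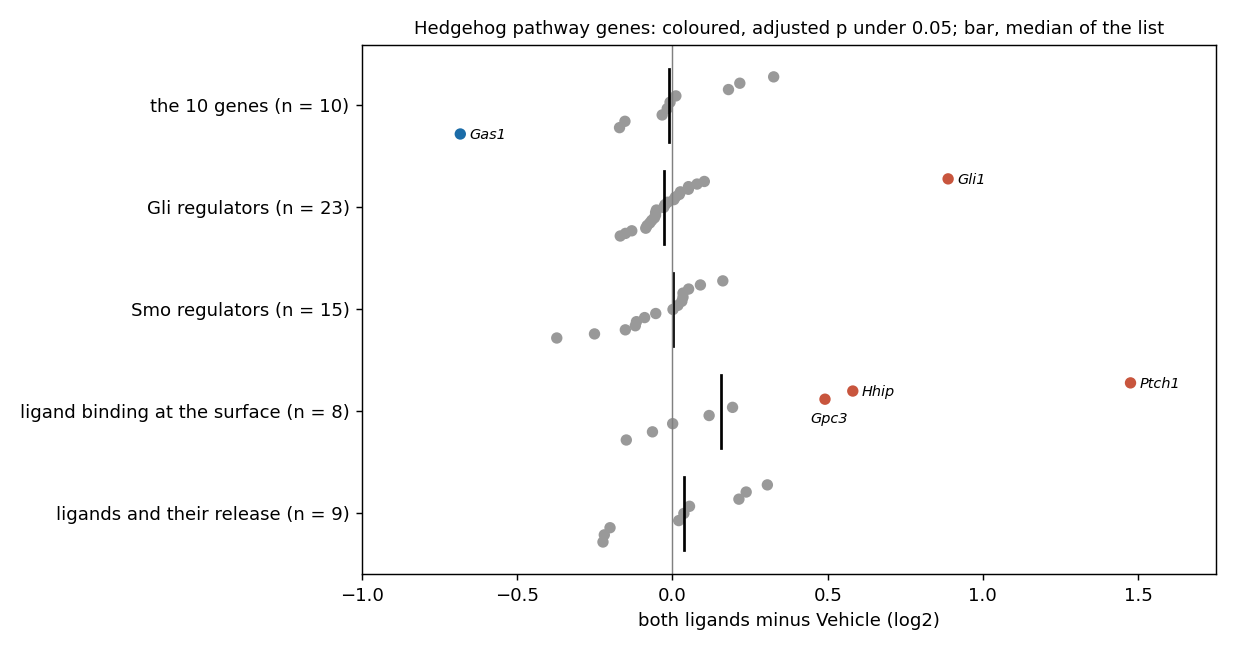
Difference of both ligands from Vehicle (log2, horizontal axis) for each gene of 4 hedgehog pathway lists and for the 10 genes (rows), with black bars for the medians and colour for an adjusted p under 0.05. Ptch1 (1.48), Gli1 (0.89), Hhip (0.58) and Gpc3 (0.49) lie to the right and Gas1 (-0.68) to the left, while the grey points lie between -0.37 and 0.33.

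The genes whose levels over the 9 arrays were most like those of Gas1 and Gli2 were sought among 11197 others with a mean above the array medians. For Gas1 they were Hif1a (Pearson's r = 0.976), Nfkbiz (0.976) and Gimap4 (0.969). Nfkbiz, a nuclear cofactor of the inflammatory factor NF-kB, fell by 0.84 log2 (limma adjusted p = 0.000868). Gimap4, a small GTPase of leukocytes and endothelium, fell by 0.47 (adjusted p = 0.0494), and Hif1a, the oxygen-sensing transcription factor, differed by -0.19 (adjusted p = 0.145). For Gli2 they were Stox2 (r = 0.971), Cd83 (0.945) and Tiam1 (0.944). Cd83, a surface protein of activated antigen-presenting cells, rose by 0.71 (adjusted p = 0.00555), Stox2 rose by 0.30 (adjusted p = 0.0454), and Tiam1, an activator of the GTPase Rac, differed by 0.25 (adjusted p = 0.174). The points of each correlation share the arrays and the treatment, and Gas1 and Gli2 were chosen with their differences between the groups known. Genes picked for their likeness to these 2 thus tend to share the differences, and their p-values are no separate evidence.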

How the data were processed

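Biotin-labelled cRNA of 9 samples, 3 each for Vehicle, Shh and Ihh, was measured on Affymetrix arrays. The deposited values are log2 expression per probe set, made by the authors with GCOS and RMA per the submitters' processing notes. For these tools the sources used here give no version, and the log2 scale was read from the range of 2.78 to 14.20. Arrays have no read depth, and their number limits the precision. Gene names came from the platform annotation, in which 34945 probe sets had 1 symbol, 932 several and 9160 none, and 64 were controls. A RefSeq table of GRCm38.p6 held the identifiers of 34741 and changed 0 symbols.

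Group means of all 9 arrays were fitted with limma 3.58.1 (lmFit, then eBayes, under R 4.3.3), with 6 residual and 3.88 prior degrees of freedom, for genes and again for every probe set. P-values are two-sided and Benjamini-Hochberg adjusted over all features. The steps were tested on simulated data. Named were the 10 genes, those called and the 3 with the smallest p in each pathway list, and the 3 genes most correlated with Gas1 and with Gli2. Markers, Xist and Eif2s3y serve as checks. The main fit did not pair arrays by replicate number. Deviations from the group means correlated at 0.23 to 0.54 in the 3 same-numbered pairs of Vehicle with Ihh. In the same-numbered pairs with Shh arrays they correlated at -0.30 to 0.14. Of arrays with different numbers, Vehicle 1 and Ihh 2 correlated at 0.22 and Shh 1 and Ihh 3 at 0.29. Whether the numbers mark pairs was thus left undecided. The 10 genes and the lists were chosen with earlier results of these data known. The GC box was added after the promoters were seen. Alternatives were other normalizations, a filter on dim genes (under the 40th percentile), other probe set choices, variance models and weights, fits to the compared groups only, the replicate number as a block, Xist as a covariate and leaving out each array.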

Additional observations from a re-analysis of the deposited data

How the results depend on the processing

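Over the 10 genes and 4 comparisons, 746 values were recomputed under the alternatives, of which 692 kept their direction and side of the threshold. The called fall of Gas1 with both ligands was -0.70 to -0.58 over 9 other settings, and limma called it in all 9. Counts of called genes with both ligands became 2 (Gas1 and Gli2) without dim genes, with a trended and robust variance model and with array weights, and with Ihh 2 (the same pair) with array weights. Called probe sets became 1 with Xist as a covariate. Leaving out each array gave 0 to 1 genes with both ligands, 0 to 1 with Shh and 0 to 2 probe sets, the low values without Vehicle 1 or Vehicle 2. 

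Signs turned in 45 values, of which 0 were called, at -0.24 to 0.08 and adjusted p of 0.276 or more, and the cause was not tested. With quantile normalization again, both ligands against Vehicle gave 0.0011 for Boc and 9e-04 for Gli3, Shh against Vehicle 0.0173 for Smo, Ihh against Vehicle -0.0138 for Kif7, and Shh against Ihh 0.0104 for Cdon and 4e-04 for Sufu. With arrays centred on medians, Smo was -0.0082 with both ligands, Boc -0.0106 with Shh and Kif7 -0.0085 with Ihh. Averaging all probe sets of each gene gave 0.0091 for Gli3 with both ligands, -0.0691 for Boc, 0.0645 for Smo and 0.0161 for Sufu with Shh, and between Shh and Ihh -0.0129 for Boc, 0.051 for Cdon, 0.0033 for Smo, 0.058 for Sufu and 0.019 for Disp1. Without less specific probe sets Boc was -0.24 with Shh and -0.0516 between the ligands. Array weights gave -0.0145 for Smo and 0.0477 for Gli3 with both ligands and -0.0038 for Kif7 with Ihh. With Xist as a covariate Boc was 0.001 and Smo -0.0423 with both ligands, and Smo -0.0028 with Ihh. Leaving out each array, with both ligands Boc was -0.049 to 0.0095, Smo -0.0261 to 0.0676, Gli3 -0.11 to 0.0578 and Kif7 -0.0204 to 0.0034. With Shh Boc was -0.0066 to 0.0372 and Smo -0.11 to 0.0763. With Ihh Boc was -0.11 to 0.0066, Gli3 -0.0398 to 0.12, Kif7 -0.0059 to 0.0179 and Scube3 -0.0033 to 0.15. Between the ligands Cdon was -0.0899 to 0.027, Smo -0.17 to 0.0174 and Disp1 -0.0835 to 0.0078.

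Deviations of same-numbered arrays correlated at 0.23 to 0.54 between Vehicle and Ihh (different numbers -0.48 to 0.22), at -0.16 to 0.14 between Vehicle and Shh and at -0.30 to -0.08 between Shh and Ihh, and 6 of 9 arrays correlated best with their own number. With the replicate number as a block the counts stayed at 1, 1, 0 and 0 genes and 2 probe sets, while all genes called with both ligands went from 274 to 379 and with Ihh from 118 to 122. The block changed no call of the 10 genes. A fit to the compared groups alone is the same fit for both ligands together and was not run there. The probe set alternatives were not run for the probe set count, and Scube3 had no value without dim genes. With 3 arrays a group the median SE over the 10 genes was 0.08 log2 for both ligands, and 8 of 23 probe sets lay below every array median.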
